A study of Mus musculus with 29 samples.

Results

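The comparison described here asked what JAK2 V617F changes in megakaryocyte-erythrocyte progenitors (MEPs) that have lost 1 of 2 copies of Ezh2. It set 6 mouse libraries labelled SclCre, JAK2V617F and Ezh2 +/- against 4 labelled ScleCre and Ezh2 +/-, which makes 10 of the series' 29 RNA-seq libraries, and the members were taken from the sample titles. All 10 therefore carried the Cre transgene, named after Scl, a transcription factor gene of blood stem and progenitor cells, and all 10 were heterozygous for Ezh2. The 6 libraries with V617F were all from female mice. The 4 without it were from 2 males (replicates 1 and 4) and 2 females (replicates 2 and 5). The labels call the samples replicates and do not say more, so p-values reflect only how these samples vary, which may be technical. The sources used here do not give the ages, the sorting gate, the species of the JAK2V617F allele, how Cre was switched on or whether any sample pooled animals.

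JAK2 is the tyrosine kinase through which the erythropoietin receptor and several other cytokine receptors signal, and V617F is the activating change found in most patients with polycythemia vera and in many with other myeloproliferative neoplasms. Its best known nuclear arm is STAT5, which binds DNA and switches on feedback inhibitors of the cytokine signalling family (Cish, Socs2) along with growth and survival genes. EZH2 is the methyltransferase of PRC2, the Polycomb complex that writes the H3K27me3 mark, and its loss is found together with JAK2 V617F in some patients. MEPs are the bone marrow progenitors from which platelets and red cells arise.

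The libraries expressed what defines the labelled cell type. Gata1, the master regulator of the erythroid and megakaryocytic lineages, lay between 205 and 283 CPM in the 10 libraries (library-scaled counts, CPM, with TMM factors), Klf1, its erythroid partner, between 173 and 338, and the progenitor receptor Kit between 404 and 619.8. Ezh2 measured 197, 189.7, 188 and 195 CPM without V617F (replicates 1, 2, 4 and 5, the order used throughout) and 148 to 205 CPM (median 174) with it, a difference that did not pass (log2 -0.13 ± 0.09, SE, adjusted p = 0.408). The 10 libraries held 34.3 to 51.9 M counts with 15015 to 16190 genes detected, and 3 counts correspond to 0.0578 to 0.0875 CPM, a floor that covers counting error only. On the first principal component of all 29 libraries, which held 42.1% of the variance, the V617F replicates 1, 5 and 6 lay from 33.5 to 53.5 and replicates 2, 3 and 4 from -31.3 to 0.128, while the Ezh2 +/- replicates 1 and 4 lay at -61.6 and -59.1 and replicates 2 and 5 at -28.1 and -9.11. Cd34, a stem cell surface protein, followed the same split. It measured 0.857, 36.6, 1.63 and 35.5 CPM without V617F, high in both female libraries and low in both male ones, and 6.18 to 62.2 CPM (median 16.04) with V617F. Cd34 was looked at after its values were seen. Outside the 10, V617F Ezh2 +/+ replicate 1 is labelled female and had Xist at 0.985 CPM, against 1570 to 2570 CPM in the other libraries labelled female, with Y-linked genes at 0.0259 CPM. It entered the fit as labelled. Results that rest on these libraries are given below with and without them.

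Of 13928 genes tested, 1374 were called (adjusted p under 0.05 by edgeR's quasi-likelihood test, Benjamini-Hochberg adjusted, as for every adjusted p below unless another tool is named), which is 9.87%. V617F raised 467 of them (3.35%) and lowered 907 (6.51%), and the change was at least 2-fold for 214 of the former and 506 of the latter. For 1133 genes (8.13%) all 6 libraries with V617F lay on 1 side of all 4 without it, and of these 259 were called higher and 526 lower. The median log2 fold change over all genes was 0.00229. The count depended on both female controls: it was 802 without Ezh2 +/- replicate 2, 706 without replicate 5 and 67 with neither, where only 2 male controls were left. In that last fit the JAK-STAT5 list kept 6 members called higher and the T and NK list 2 called lower, while the megakaryocyte, erythroid, granulocyte, macrophage, class II, cytokine receptor, MAPK feedback and immediate early lists below had 0 members called in either direction. Sex was a term of the fit, and the count was 2170 without that term, 926 among female libraries and 1838 without the V617F replicates 1, 5 and 6. In a fit of these 10 libraries alone it was 313, and without V617F Ezh2 +/+ replicate 1 it was 1647. Of the genes called, 46 (29 higher, 17 lower) were called in the same direction in each of 20 other fits of the data, and 244 were if the fit without both female controls is set aside.

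**Figure D1:**
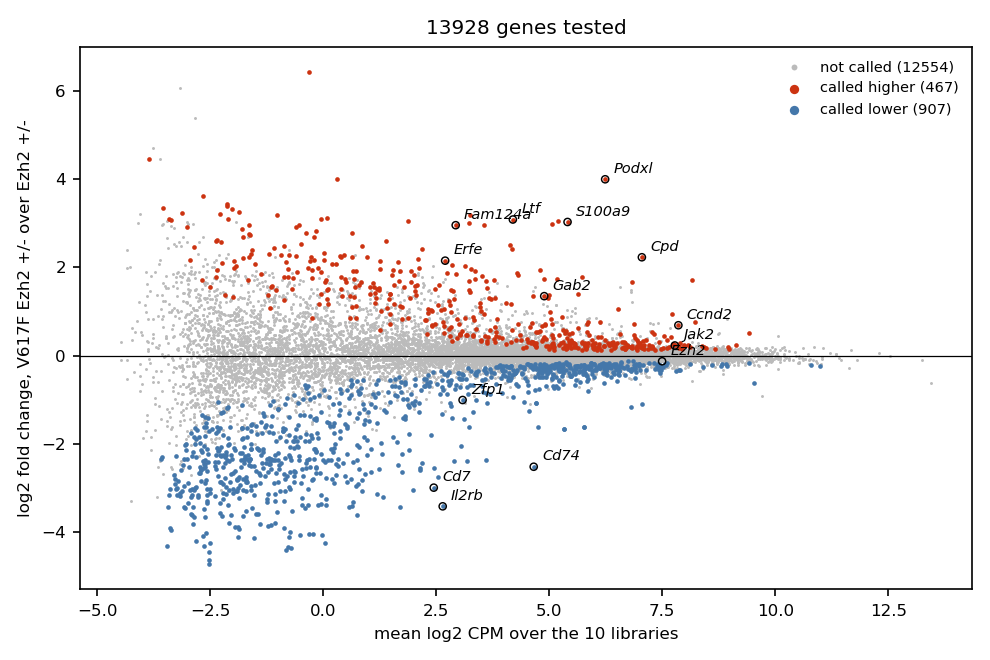
Each point is 1 of 13928 genes, with its mean log2 CPM over the 10 libraries on the x axis and the log2 fold change of V617F Ezh2 +/- (6 libraries) over Ezh2 +/- (4 libraries) on the y axis. Genes called higher (467) are red, genes called lower (907) blue, and Podxl lies at a log2 of 4.0.

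Podxl, Cpd and Gab2 rose in every library with V617F. Podxl encodes podocalyxin, a sialomucin of the CD34 family at the surface of blood progenitors, platelets and vessels. It measured 10.8, 17.3, 12.1 and 17.7 CPM without V617F and 169.9 to 295 CPM (median 234) with it. The lowest library with V617F stood far above the highest without it, and the log2 fold change was 4.0 ± 0.23 (adjusted p = 1.29e-11). Cpd, a membrane carboxypeptidase of the trans-Golgi network, measured 44.8, 63.7, 51.9 and 52.7 CPM without V617F and 163 to 330.2 CPM (median 264) with it (log2 2.23 ± 0.20, adjusted p = 1.68e-07). Gab2 encodes a docking protein that links cytokine receptors to SHP2 and PI3 kinase. Its levels were 12.8, 16.99, 13.4 and 22.97 CPM without V617F and 41.97 to 48.1 CPM (median 44.3) with it (log2 1.35 ± 0.14, adjusted p = 2.18e-06). For Gab2 the 6 libraries with V617F lay closer together than the 4 controls did. Each of the 3 genes was called in all 20 other fits, and the log2 value ranged from 3.73 to 4.55 for Podxl, from 2.11 to 2.49 for Cpd and from 1.15 to 1.76 for Gab2.

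**Figure D2:**
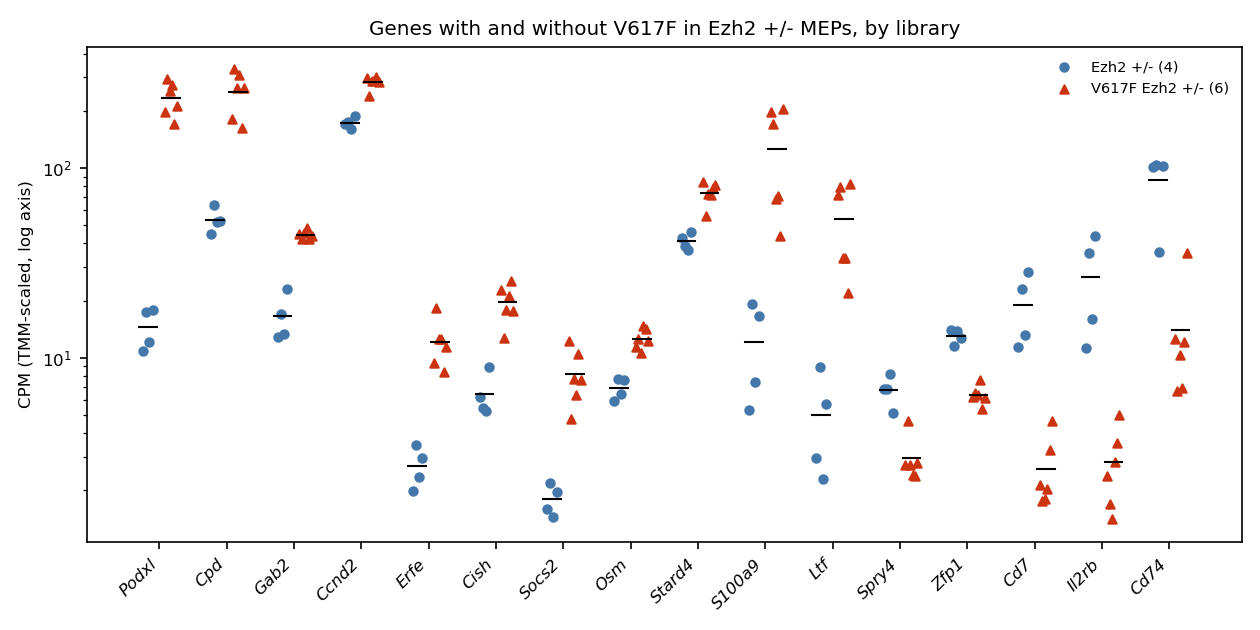
CPM on a log axis for 16 genes, 1 point per library, with 4 Ezh2 +/- libraries as blue circles, 6 V617F Ezh2 +/- libraries as red triangles and the mean of each group as a bar. The groups do not overlap for any of the 16 genes, and for Podxl the 6 libraries from 170 to 295 CPM stand above the 4 from 10.8 to 17.7 CPM.

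Genes taken as downstream of JAK2 and STAT5 were tested as a list of 25. Of these, 9 were higher (Podxl and Gab2 among them) and 1 lower, and 10 did not overlap between the groups, although the median log2 fold change of the list was 0.06. Over all genes tested 3.35% were higher and 8.13% did not overlap. Podxl and Gab2 were set as markers of these libraries in advance, so their calls carry no support for the list. Without the V617F replicates 1, 5 and 6 again 9 were higher, and without both female controls 6 were. The list had been drawn up with earlier results of these libraries known, so its direction is not independent evidence. The feedback inhibitors split. Socs2, which dampens growth hormone and related signals, measured 1.59, 2.19, 1.45 and 1.95 CPM without V617F and 4.74 to 12.3 CPM (median 7.63) with it (log2 2.0 ± 0.31, adjusted p = 0.000157). Cish, the classical STAT5 target that binds phosphorylated cytokine receptors, went from 6.20, 5.43, 5.26 and 8.96 to 12.7 to 25.3 CPM (median 19.5) (log2 1.53 ± 0.23, adjusted p = 1e-04). Both were singled out after their values were seen. Socs3, which inhibits JAK2 directly, had 2.41, 3.96, 2.87 and 8.0 CPM without V617F against 1.58 to 7.10 CPM (median 5.63) with it, the groups overlapped, and the difference did not pass (log2 0.06 ± 0.41, adjusted p = 0.954).

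Among the transcriptional targets, Ccnd2, the D-type cyclin of cytokine-driven cell cycle entry, rose in a narrow band. Its levels were 171, 174, 159.8 and 188 CPM without V617F and 240.5 to 301 CPM (median 287) with it (log2 0.69 ± 0.08, adjusted p = 8.2e-06). Erfe encodes erythroferrone, the hormone by which erythroid cells lower hepcidin and free iron. It measured 1.97, 3.46, 2.34 and 2.97 CPM in the controls and 8.39 to 18.2 CPM (median 11.9) with V617F (log2 2.15 ± 0.26, adjusted p = 1.24e-05). Osm encodes the inflammatory cytokine oncostatin M, a STAT5 target in blood cells. Its values were 5.90, 7.76, 6.42 and 7.63 CPM without V617F and 10.6 to 14.7 CPM (median 12.4) with it (log2 0.88 ± 0.13, adjusted p = 0.000104). Ccnd2, Erfe, Osm and Cish were called in all 20 other fits. The other 2 called higher, Id1 (log2 1.99 ± 0.52) and Lrg1 (log2 2.97 ± 0.73), stayed below 5 CPM in every library. Bcl6, a transcriptional repressor that STAT5 is known to turn down, was the member called lower, from 1.48, 2.38, 1.13 and 2.61 CPM to 0.541 to 1.58 CPM (median 0.995) (log2 -1.07 ± 0.32, adjusted p = 0.0302). The groups overlapped for Bcl6 and it was called in 12 of 20 other fits.

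STAT5 binds the palindrome TTCNNNGAA, so the starts of the called members were searched for it. The motif reads the same on both strands. In the RefSeq promoters used here (250 bases before to 50 after a start, build GRCm38.p6), 17 of the 25 list members could be matched and 3 held the motif, and of the 10 called members 4 could be matched and 2 held it, Cish and Bcl6. Over all promoters the share was 8.3% of 32851. It was 8.38% of tested genes, 9.97% of the genes called higher (36 of 361) and 8.97% of those called lower (61 of 680). The stretches that hold it are shown because these 2 genes moved in opposite directions. Capitals mark each match. For Cish the first 250 bases lie before the start and the match covers the first 9 bases of the transcript (chr9:107296409-107296667, plus strand). For Bcl6 the 250 bases before each of 2 starts are given, with 3 matches (chr16:23981284-23981533, minus strand) and 1 match (chr16:23988853-23989102, minus strand).
Cish: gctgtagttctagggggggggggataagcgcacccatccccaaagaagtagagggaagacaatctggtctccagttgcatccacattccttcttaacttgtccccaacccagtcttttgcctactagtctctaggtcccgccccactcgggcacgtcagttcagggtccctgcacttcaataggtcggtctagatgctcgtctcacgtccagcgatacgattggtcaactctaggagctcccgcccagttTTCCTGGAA
Bcl6, first start: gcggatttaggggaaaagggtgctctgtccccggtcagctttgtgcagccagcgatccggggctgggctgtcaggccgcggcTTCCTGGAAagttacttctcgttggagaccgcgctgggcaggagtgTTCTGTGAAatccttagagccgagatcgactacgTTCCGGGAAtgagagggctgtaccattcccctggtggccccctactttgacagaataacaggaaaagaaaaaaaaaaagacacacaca
Bcl6, second start: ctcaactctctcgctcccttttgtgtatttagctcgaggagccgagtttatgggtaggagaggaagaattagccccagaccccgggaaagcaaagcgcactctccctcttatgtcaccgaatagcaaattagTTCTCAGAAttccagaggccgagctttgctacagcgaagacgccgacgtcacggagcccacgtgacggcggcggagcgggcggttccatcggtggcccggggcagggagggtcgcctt
A match describes these letters and says nothing about binding in these cells.

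The signalling genes themselves moved little. Jak2 measured 208, 188, 188 and 209 CPM without V617F and 224 to 256 CPM (median 229) with it, groups that did not overlap (log2 0.23 ± 0.05, adjusted p = 0.00536), and whether reads of the V617F allele are among these counts is not known, since the species of that allele is not given. Among 19 kinases, STAT factors and adaptors, Jak2 was the 1 called higher and Stat2, the interferon signalling factor, the 1 called lower (log2 -0.44 ± 0.10, adjusted p = 0.00607). Stat5a measured 222 ± 11.8 CPM without V617F and 210.0 ± 6.47 with it and was not called (adjusted p = 0.581). Of 25 cytokine receptors, 6 were lower. Epor, the erythropoietin receptor, had 168 ± 16.4 CPM against 131 ± 27.9 CPM and was not called (adjusted p = 0.166). The receptors called lower were Il2rb, Il2rg and Il7r of the lymphoid cytokines, Ifngr2 of interferon gamma, Csf1r of macrophages and Il1rl1, the interleukin-33 receptor of mast and type 2 lymphoid cells. Ifngr2 went from 19.6, 21.5, 19.5 and 18.99 CPM to 13.04 to 14.9 CPM (median 14.03) (log2 -0.46 ± 0.08, adjusted p = 0.000508).

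Feedback genes of the MAPK arm that were called were lower, not higher. Of 13 tested, 3 were called lower, beside 6.51% of all genes tested, and 3 did not overlap between the groups, beside 8.13%. Only 1 was called lower in a fit of the 2 groups alone. Spry4, an inhibitor of receptor tyrosine kinase signalling to RAS, measured 6.82, 6.83, 8.15 and 5.11 CPM without V617F and 2.37 to 4.65 CPM (median 2.72) with it (log2 -1.02 ± 0.18, adjusted p = 0.000508). Its relative Spry2 (log2 -0.85 ± 0.18, adjusted p = 0.00247) and Dusp10, a phosphatase of p38 and JNK, fell as well (log2 -1.08 ± 0.24, adjusted p = 0.0042). The groups did not overlap for any of the 3. Dusp6, the ERK phosphatase that is often read as a gauge of ERK activity, had 27.03 ± 2.61 CPM without V617F and 24.05 ± 4.17 with it and was not called (adjusted p = 0.422).

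The immediate early list gave another pattern. Of 22 members 3 were higher, all of them early growth response factors, and the median of the list was -0.06. Egr1 measured 144, 148, 97.7 and 178 CPM without V617F and 241 to 889 CPM (median 428) with it (log2 1.72 ± 0.33, adjusted p = 0.00132). Egr2 (log2 1.40 ± 0.33) and Egr3 (log2 2.08 ± 0.50) went the same way without overlap. The highest Egr1 and Egr2 values were those of V617F replicates 1 and 5. Without replicates 1, 5 and 6 the Egr1 value was 0.90 (adjusted p = 0.0273), and 1 of the 3 factors was still called. Fos measured 108 ± 23.7 CPM without V617F and 157 ± 65.3 with it and was not called (adjusted p = 0.318).

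Podxl aside, the sialomucin and adhesion list hardly moved. Of 17 members the only other one called was Itgb1, the common beta subunit of matrix-binding integrins, with a log2 of 0.20 ± 0.07 (adjusted p = 0.0484). Several enzymes and less studied genes rose beside Podxl. Fam124a, a gene of poorly known function, measured 2.05, 2.49, 1.84 and 2.87 CPM without V617F and 8.55 to 29.4 CPM (median 17.8) with it (log2 2.96 ± 0.33, adjusted p = 2.91e-06). Hs6st2 encodes a sulfotransferase that modifies heparan sulfate. It went from 2.17, 2.06, 1.45 and 1.41 CPM to 4.80 to 12.5 CPM (median 8.75) (log2 2.18 ± 0.27, adjusted p = 1.53e-05). B3gnt7, a glycosyltransferase that extends sugar chains, went from 0.777, 1.67, 2.31 and 2.34 CPM to 5.84 to 17.9 CPM (median 8.25) (log2 2.42 ± 0.40, adjusted p = 0.000292). For these 3 genes no control library reached the lowest library with V617F, which the rule for naming the largest changes requires.

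The 46 genes called in every fit hold further members outside the lists. C2cd4a, a gene known from inflamed endothelium and pancreatic islets, had the highest log2 of them at 6.44 ± 0.80, from 10 counts over the 4 controls, 2 of which held none, to 1.49 to 7.12 CPM (median 4.28). App, the amyloid precursor protein of platelets and neurons, went from 10.3, 16.02, 9.34 and 17.5 CPM to 37.1 to 43.5 CPM (median 38.6) (log2 1.36 ± 0.16). The ubiquitin ligase gene Rnf144b (log2 1.61 ± 0.17), the fatty acid carrier Fabp5 (log2 1.40 ± 0.15) and Plek2, a regulator of the actin skeleton of red cell precursors (log2 1.82 ± 0.22), rose as well. Among the 17 that fell, Zfp1, a zinc finger gene, had 14.03, 11.5, 13.9 and 12.6 CPM without V617F and 5.33 to 7.58 CPM (median 6.29) with it (log2 -1.01 ± 0.09, adjusted p = 2.42e-07). The transferrin-like gene 1300017J02Rik went from 17.8, 22.03, 19.4 and 16.7 CPM to 7.19 to 12.6 CPM (median 9.24) (log2 -1.08 ± 0.15). Slc38a9, the lysosomal arginine sensor of the mTORC1 pathway, had a log2 of -0.81 ± 0.11, and Ptgr1, a prostaglandin reductase, one of -0.60 ± 0.08. C2cd4a, App, Rnf144b, Fabp5, Plek2, Slc38a9 and Ptgr1 were chosen after their values were seen.

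Megakaryocyte and platelet genes were higher as a group, but not in every library. Of 48 tested, 18 were higher and 2 lower, beside 3.35% and 6.51% of all genes tested. The median log2 fold change was 1.21 and 45 had a positive value. Vwf, the platelet and endothelial adhesion protein, measured 36.8, 49.9, 51.6 and 88.1 CPM without V617F and 48.3 to 377 CPM (median 237) with it (log2 1.66 ± 0.44, adjusted p = 0.0162). Ptger3, a prostaglandin receptor, went from 5.30, 5.79, 5.68 and 10.5 CPM to 7.65 to 24.1 CPM (median 16.05) (log2 1.10 ± 0.26, adjusted p = 0.00735), and Gucy1a1, a subunit of the nitric oxide receptor, had a log2 of 1.97 ± 0.53. Alox12, the platelet lipoxygenase, did not overlap between the groups (log2 2.28 ± 0.57, adjusted p = 0.0096). Itga2b, which encodes CD41 and marks the lineage from its start, had 34.4, 58.2, 53.4 and 129 CPM without V617F against 40.8 to 402 CPM (median 209) with it and was not called (adjusted p = 0.0996). The mean log2 CPM over the list was 1.79, 2.54, 2.28 and 3.20 without V617F and 4.57, 2.12, 3.56, 3.43, 4.64 and 4.31 in V617F replicates 1 to 6, so that replicate 2 lay inside the control range and replicates 1, 5 and 6 were highest. The number called higher was 36 without V617F replicate 2, and 0 without replicates 1, 5 and 6. It was also 0 in a fit of the 2 groups alone and 0 without Ezh2 +/- replicate 2. It was 2 among female libraries, and 5 to 7 without Ezh2 +/- replicates 1 or 5 or V617F replicates 1, 5 or 6. In bulk RNA, more cells of a type and more RNA per cell cannot be told apart.

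Erythroid genes gave fewer calls, most of them lower. Of 34 members 7 were lower and 2 higher, with a median of -0.27. The globins, which fill maturing red cells, made up 4 of the 7, with the counts of near-identical globin copies not separable. Hba-a1, whose counts equal those of Hba-a2, measured 54.3, 74.8, 48.6 and 149 CPM without V617F and 14.4 to 62.3 CPM (median 28.3) with it (log2 -1.65 ± 0.32, adjusted p = 0.00152), and Hbb-bs, with nearly the values of Hbb-b1, had a log2 of -1.61 ± 0.39. Ezh2 +/- replicate 5 had the highest globin values and V617F replicate 6 the highest within its group, so the groups overlapped. Alas2, the erythroid enzyme that starts heme synthesis, had a log2 of -1.29 ± 0.31 (adjusted p = 0.00855) and also belongs to the heme list, where 5 of 22 were lower. Epb42, a protein of the red cell membrane skeleton, fell without overlap from 30.5, 38.8, 36.1 and 34.2 CPM to 12.4 to 29.7 CPM (median 21.5) (log2 -0.77 ± 0.19). Slc14a1, the urea transporter of red cells, went the other way (log2 0.29 ± 0.06, adjusted p = 0.00185). The number of erythroid members called lower was 2 without Ezh2 +/- replicate 5 and 13 without V617F replicate 2. In a fit of the 2 groups alone 0 were called lower and 0 higher.

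Few transcription factors of these lineages and few proliferation genes were called. Of 20 erythro-megakaryocytic factors Mef2c alone was called (log2 1.06 ± 0.34, adjusted p = 0.0439), and it was called in 7 of 20 other fits. The list had 15 positive log2 values with a median of 0.15, 9 members had an unadjusted p under 0.05, and its summed level was 3431 to 3578 CPM without V617F and 3593 to 4054 CPM with it, with no overlap. The number called higher was 6 without V617F replicate 2 and 6 without the sex term. Gata1 measured 253 ± 26.2 CPM without V617F and 237 ± 26.1 with it (log2 -0.04 ± 0.10), and Klf1 268 ± 47.4 CPM and 244 ± 62.5 CPM (log2 -0.01 ± 0.18). Of 32 DNA replication genes E2f2, the E2F factor most tied to red cell maturation, was the 1 called (log2 -0.64 ± 0.13, adjusted p = 0.00248). Of 30 mitosis genes edgeR called 0 and DESeq2 0, with 2 at an unadjusted p under 0.05. Mki67, the proliferation antigen, had 1600.1 ± 67.4 CPM without V617F and 1413 ± 242 with it (log2 -0.18 ± 0.11, adjusted p = 0.344). Of 26 cell cycle inhibitors and p53 targets 2 were lower, Pmaip1, which encodes the death factor NOXA (log2 -1.08 ± 0.25), and Sesn1, a stress-induced brake on mTORC1 (log2 -0.23 ± 0.06). This is near the 6.51% lower among all genes tested. The count was 0 without Ezh2 +/- replicate 5 and 4 without V617F replicates 1, 5 and 6.

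Markers of other blood cells moved together with V617F, up for granulocytes and down for lymphocytes and macrophages. Granulocyte genes gave 16 higher of 27, beside 3.35% of all genes tested. All 27 had a positive log2 value, with a median of 2.04. The 7 of 8 secondary and tertiary granule genes that were higher include Ltf, lactoferrin, at 2.95, 8.89, 2.29 and 5.72 CPM without V617F and 21.97 to 82.4 CPM (median 52.9) with it (log2 3.09 ± 0.53, adjusted p = 0.000412). S100a9, which pairs with S100a8 as calprotectin, went from 5.28, 19.2, 7.42 and 16.6 CPM to 44.03 to 205 CPM (median 120.2) (log2 3.03 ± 0.55, adjusted p = 0.000702). Ngp (log2 3.04 ± 0.55), Camp (log2 2.96 ± 0.57), Lcn2 (log2 3.01 ± 0.57) and Chil3 (log2 3.20 ± 0.75) moved by nearly the same amount. None of these genes overlapped between the groups, which the rule for naming the largest changes requires. Mpo, the myeloperoxidase of earlier granulocyte precursors, overlapped widely, with 12.3, 187, 6.99 and 103 CPM without V617F and 55.2 to 696 CPM (median 215) with it, and was not called (adjusted p = 0.296). The summed level of the list ran from 57.9 to 392 CPM in the controls and from 425 to 2060 CPM with V617F. The number called higher was 11 without the V617F replicates 1, 5 and 6 and 8 among female libraries, where S100a9 kept a log2 of 2.83 (adjusted p = 0.029). Only 1 member was called in a fit of the 2 groups alone.

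T and NK cell genes fell together. Of 30 tested, 23 were lower, beside 6.51% of all genes tested. Between the groups 21 did not overlap, beside 8.13% of all genes, and the median was -3.02. Cd3e, a chain of the T cell receptor complex, measured 1.36, 4.61, 1.55 and 3.69 CPM without V617F and 0.194 to 0.690 CPM (median 0.259) with it (log2 -3.45 ± 0.44, adjusted p = 1.91e-05). Cd7, a T and NK surface protein, went from 11.3, 23.03, 13.2 and 28.4 CPM to 1.75 to 4.66 CPM (median 2.08) (log2 -2.99 ± 0.40), and Il2rb, the interleukin-2 receptor beta chain of NK cells, from 11.2, 35.6, 16.1 and 43.9 CPM to 1.40 to 4.96 CPM (median 2.61) (log2 -3.42 ± 0.48). Both female controls were higher than both male ones for all 3 genes. Bcl11b, the factor that fixes T cell identity, had a log2 of -3.13 ± 0.44 and was called in all 20 other fits, as was Cd3e. The number called lower was 20 to 26 in the other fits, except in that without both female controls, where it was 2. The summed level of the list was 101 to 284 CPM without V617F and 42.4 to 138.5 CPM with it.

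MHC class II genes and the markers of macrophages and dendritic cells fell as well. Of 10 class II genes 6 were lower, beside 6.51% of all genes tested. Cd74, the invariant chain that guides class II molecules, had 101, 104, 36.2 and 103 CPM without V617F and 6.70 to 35.5 CPM (median 11.2) with it (log2 -2.52 ± 0.50, adjusted p = 0.00156), and its regulator Ciita had a log2 of -2.25 ± 0.48. Of 26 monocyte, macrophage and dendritic genes 16 were lower, with a median of -2.17. Itgax, which encodes CD11c of dendritic cells, went from 10.1, 12.8, 4.29 and 15.8 CPM to 0.582 to 2.56 CPM (median 0.854) (log2 -3.22 ± 0.50, adjusted p = 0.000121). The macrophage genes overlapped more: C1qa, a complement chain, had 3.37, 2.56, 1.92 and 14.03 CPM without V617F against 0.221 to 2.14 CPM (median 0.744) with it, and its highest control was replicate 5. Without that replicate 4 macrophage and dendritic genes were called lower. The summed level of this list was 237 to 491 CPM without V617F and 164 to 239 CPM with it, and that of the class II genes 131 to 317 CPM and 63.9 to 168 CPM. Every tested member of these lists and of the granulocyte and T and NK lists had counts in both groups. Of 17 B cell genes 4 were lower, 2 had a positive log2 value and the median was -1.37. The mean log2 CPM of the B cell list was -1.36 to 0.149 without V617F and -1.845 to -0.816 with it, with overlap. Its summed level stayed between 33.6 and 62.6 CPM in all 10 libraries. Of 16 mast cell, basophil and eosinophil genes Il4 was the 1 called (log2 1.91 ± 0.44). Whether these markers have a part in the other results was not tested.

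**Figure D3:**
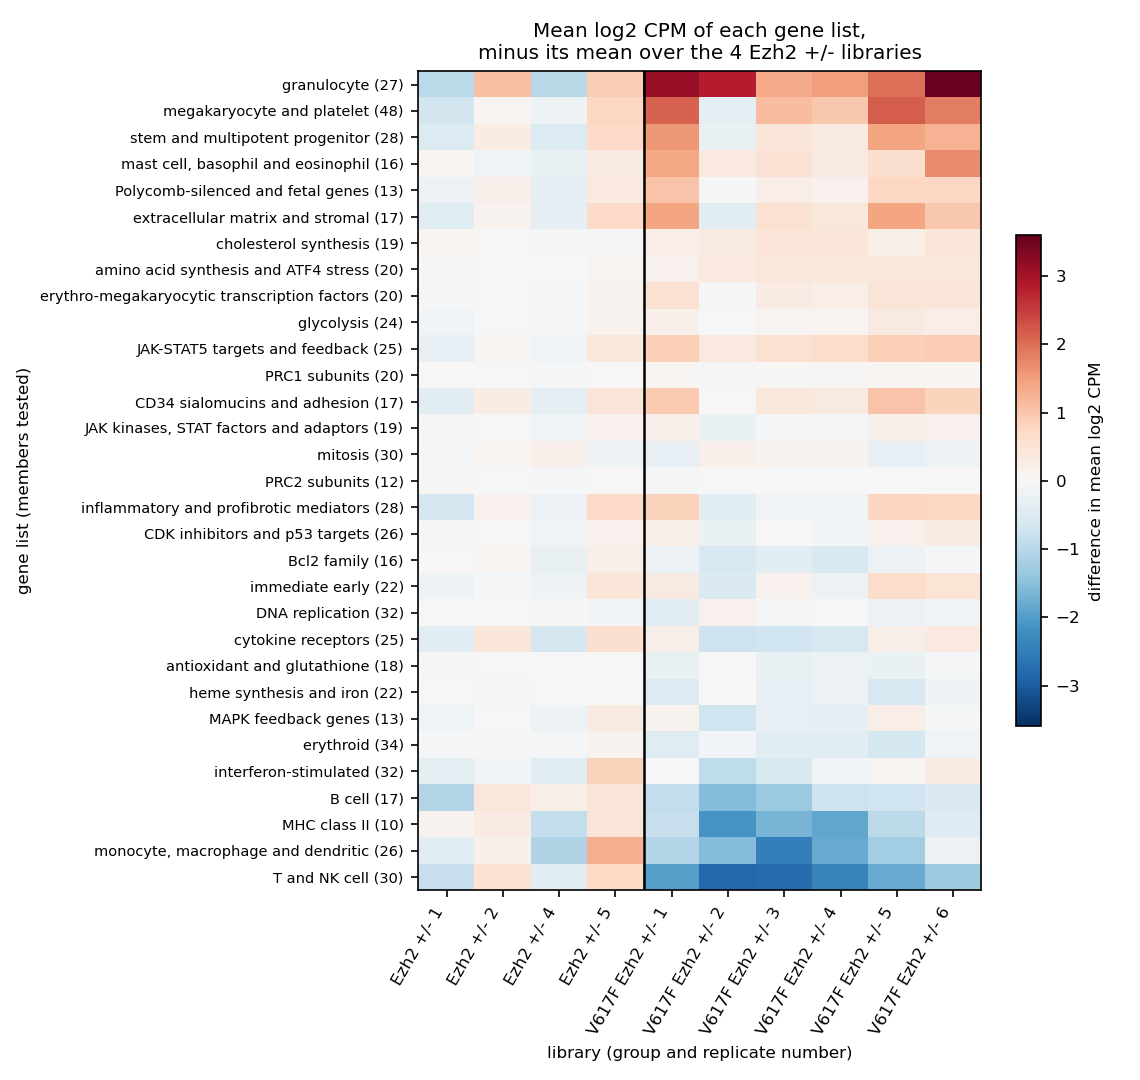
Mean log2 CPM of each of 31 gene lists in each of the 10 libraries, minus the mean of that list over the 4 Ezh2 +/- libraries, with the number of members tested in brackets and red for higher. The granulocyte list is higher in all 6 libraries with V617F and the T and NK list lower in all 6, while the megakaryocyte list is high in replicates 1, 5 and 6 and at the control level in replicate 2.

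Stem and multipotent progenitor genes gave 3 higher of 28, Egr1 and Hoxa9 among them, with a median of 0.63. The count was 12 without V617F replicate 2, 11 without the sex term, 9 without V617F Ezh2 +/+ replicate 1, and 1 without Ezh2 +/- replicate 1 or 2 or V617F replicate 1, 5 or 6, and Hoxa9 was called in 8 of 20 other fits. Interferon-stimulated genes gave 5 lower of 32, among them Irf1 (log2 -1.17 ± 0.34), Irf9 (log2 -0.47 ± 0.13) and the antiviral effector Mx1 (log2 -1.36 ± 0.38), with a median of -0.36. The mean log2 CPM of this list was 4.61 in Ezh2 +/- replicate 5 and 3.39 to 3.69 in the other 3 controls, and the number called lower was 0 without that replicate, 2 without V617F replicate 3 and 9 without V617F replicates 1, 5 and 6. Among 28 inflammatory and profibrotic mediators 5 were higher and 2 lower. Osm, S100a8 and S100a9 are described above, Timp3, a matrix protease inhibitor, went from 2.51, 6.52, 5.92 and 10.7 CPM to 8.64 to 81.4 CPM (median 47.8) (log2 2.42 ± 0.55), and Vegfa, the vessel growth factor, rose by a log2 of 0.30 ± 0.09. The chemokines Ccl3 and Ccl4 were lower, Ccl3 at 1.77, 4.57, 3.26 and 6.62 CPM without V617F and 0.277 to 1.26 CPM (median 0.467) with it (log2 -2.70 ± 0.55). Hoxb2 and the fetal genes Dlk1 and Peg10 were the 3 called higher among 13 Polycomb-silenced and fetal genes, and none of the list was called higher without Ezh2 +/- replicate 1, without Ezh2 +/- replicate 2, without V617F replicate 1 or without V617F replicates 1, 5 and 6. Without V617F replicate 2 there were 5. Tbx3, a T-box factor of development, was called lower (log2 -2.51 ± 0.57, adjusted p = 0.00507). Of 20 PRC1 subunits Pcgf3 (log2 0.23 ± 0.05) and Scmh1 (log2 0.24 ± 0.07) were higher. Of 12 PRC2 subunits edgeR called 0 and DESeq2 0, with 1 at an unadjusted p under 0.05.

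Cholesterol synthesis was the metabolic list with the most calls. Of 19 members 9 were higher, 7 of them enzymes, and 18 had a positive log2 value, with a median of 0.34. Stard4, a carrier that moves cholesterol between membranes, measured 42.6, 38.8, 37 and 46.1 CPM without V617F and 55.7 to 83.9 CPM (median 75.6) with it (log2 0.76 ± 0.11, adjusted p = 8.79e-05) and was called in all 20 other fits. Cyp51, which removes a methyl group from lanosterol, went from 39.7, 35.5, 33.8 and 36.8 CPM to 44.3 to 62.5 CPM (median 54.2) (log2 0.51 ± 0.12, adjusted p = 0.00643). The summed level of the list was 725 to 779 CPM without V617F and 893 to 1046 CPM with it, with no overlap. The count was 10 without the V617F replicates 1, 5 and 6, 4 without Ezh2 +/- replicate 2, 2 without replicate 5 and 1 without both.

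Other metabolic and stress lists gave fewer calls. Of 20 amino acid synthesis and ATF4 stress genes 3 were higher and 1 lower, and 17 had a positive log2 value, with a median of 0.18. The mean log2 CPM of this list was 4.45 to 4.61 without V617F and 4.66 to 4.935 with it, with no overlap. Its summed level overlapped, at 2026 to 2401 CPM and 1762 to 2679 CPM. The number called higher was 0 without both female controls. Trib3, a pseudokinase induced through ATF4, measured 0.359, 0.430, 0.342 and 0.332 CPM without V617F and 1.13 to 2.74 CPM (median 1.85) with it (log2 2.32 ± 0.44, adjusted p = 0.00101), while Ddit3, which encodes the stress factor CHOP, fell (log2 -0.55 ± 0.13). Mthfd2, a mitochondrial folate enzyme, rose by a log2 of 0.77 ± 0.17. Of 24 glycolysis genes the phosphofructokinase Pfkp (log2 0.47 ± 0.10) and the glucose transporter Slc2a3 (log2 0.30 ± 0.07) were higher and Pfkfb4 lower (log2 -0.77 ± 0.17). Of 18 antioxidant genes 1 was higher, the thioredoxin reductase Txnrd1 (log2 0.35 ± 0.08), and 3 were lower, among them Hmox1, the heme-degrading enzyme abundant in macrophages (log2 -2.56 ± 0.57). Of 17 matrix and stromal genes 3 were higher and 1 lower, and Lama5, a laminin chain of vessel walls, had a log2 of 1.56 ± 0.34 (adjusted p = 0.00314). Of 16 Bcl2 family genes 3 were lower, Pmaip1 and the survival factors Bcl2a1b (log2 -2.73 ± 0.50) and Bcl2a1d, near-identical copies whose reads may be shared.

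Further genes named by the size of their fall are not in the lists above. Id2, an inhibitor of helix-loop-helix factors required for NK cells, went from 7.22, 14.4, 6.10 and 25.2 CPM to 1.45 to 4.78 CPM (median 2.13) (log2 -2.54 ± 0.42). Ablim1, an actin-binding protein, had a log2 of -2.43 ± 0.55, and Relb, an NF-kappaB subunit of dendritic cells, one of -1.32 ± 0.22. Cxcl10, an interferon-induced chemokine, had 18.7, 11.1, 18.5 and 27.01 CPM without V617F and 4.02 to 8.36 CPM (median 6.13) with it (log2 -1.63 ± 0.33). Acp5, the tartrate-resistant phosphatase, had a log2 of -1.42 ± 0.21. The rule that named these 5 required a call and no overlap between the groups. Each was called in 19 of 20 other fits, all but the one without both female controls.

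The same V617F effect can be set beside that in the other Ezh2 genotypes, which have their own controls. The labels give SclCre, JAK2V617F with Ezh2 +/+ (3 females, 1 male) and Ezh2 -/- (6 females), and ScleCre with Ezh2 +/+ (3 females, 2 males) and Ezh2 -/- (3 females, 1 male). In Ezh2 +/+ (4 against 5) 3287 genes (23.6%) were called with V617F, and in Ezh2 -/- (6 against 4) 5795 (41.6%). The median standard error over all genes was 0.114 in Ezh2 +/-, 0.111 in Ezh2 +/+ and 0.108 in Ezh2 -/-. Why the counts differ was not tested. Of the 1374 genes called in Ezh2 +/-, 1107 (80.6%) were called in the same direction in Ezh2 +/+, where they made up 33.7% of the calls. No gene was called in opposite directions in these 2. The number shared with Ezh2 -/- in the same direction was 718 (52.3% and 12.4%), 18 genes were called in opposite directions there, and 595 genes, 244 higher and 351 lower, were called the same way in all 3. Across genes, which are not independent replicates, the log2 values of Ezh2 +/- correlated at r = 0.87 with those of Ezh2 +/+ and at 0.54 with those of Ezh2 -/-. All 3 effects come from 1 fit and share its sex term. Without V617F Ezh2 +/+ replicate 1, 2784 genes were called in Ezh2 +/+ (19.8% of 14034) and 1647 in Ezh2 +/-, of which 1082 were called the same way in both (65.7% of the latter and 38.9% of the former). Podxl rose by a log2 of 3.99 ± 0.21 in Ezh2 +/+, Cpd by 2.56 ± 0.19 and Gab2 by 1.25 ± 0.13.

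Tested directly, no gene's V617F effect was called different between Ezh2 +/- and Ezh2 +/+ (edgeR, 0%), with 937 genes at an unadjusted p under 0.05 and 6 called by DESeq2. Those 6 were Nfkb2, the NF-kappaB p100 subunit (difference 0.67 ± 0.16, Ezh2 +/- minus Ezh2 +/+), Fbrs, Kcnab2, Slc35c1, Lrch4 and 1810037I17Rik, and they were not chosen by the naming rule. For Podxl the difference was 0.01 ± 0.27 (SE, adjusted p = 0.997), for Gab2 0.10 ± 0.19 and for Cpd -0.33 ± 0.26. A missed threshold does not show that the effects are alike, and the standard errors give the size of difference that could have been seen.

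**Figure D4:**
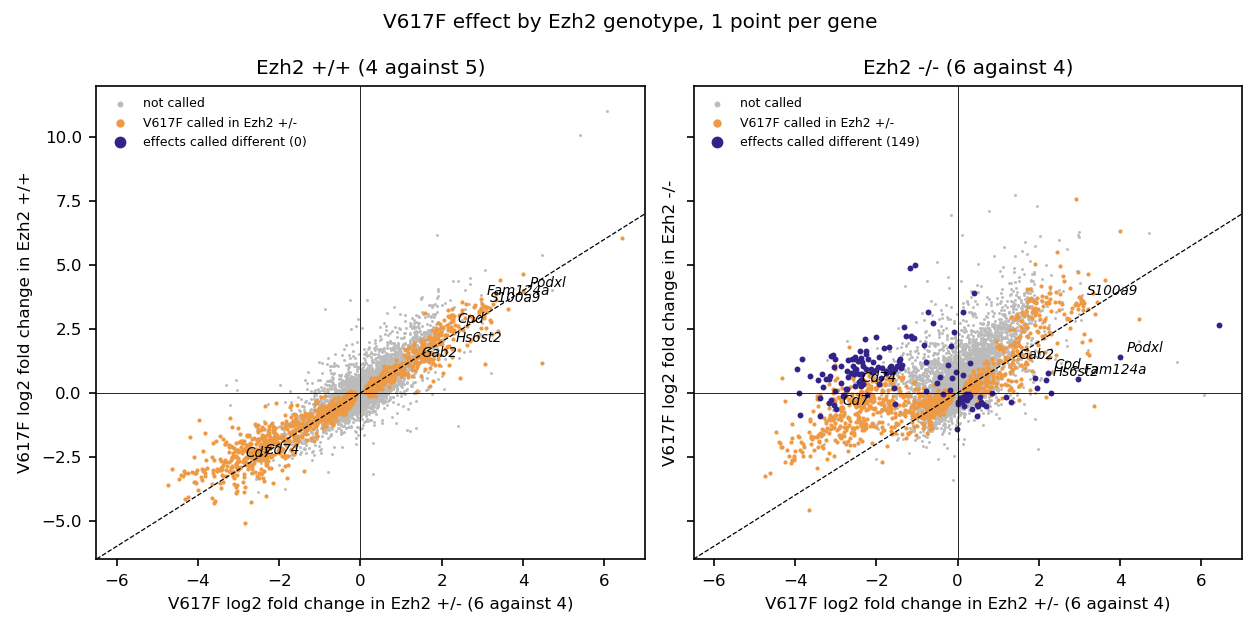
Each point is a gene, with its V617F log2 fold change in Ezh2 +/- on the x axis and that in Ezh2 +/+ (left) or Ezh2 -/- (right) on the y axis. The dashed line marks equal effects, orange points are the 1374 genes called in Ezh2 +/-, and dark points are those whose effects were called different, 0 on the left and 149 on the right, where Podxl, Cpd, Fam124a and Hs6st2 lie below the line.

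Between Ezh2 -/- and Ezh2 +/- the effects of 149 genes (1.07%) were called different, 114 with the higher value in Ezh2 -/- and 35 with the lower. Podxl led the latter. Its rise was 1.42 ± 0.19 in Ezh2 -/- against 4.0 ± 0.23 in Ezh2 +/-, a difference of -2.58 ± 0.27 (SE, adjusted p = 6.94e-06). Cpd (difference -1.47 ± 0.25, adjusted p = 0.00585), Fam124a (-2.40 ± 0.40), Hs6st2 (-1.68 ± 0.33) and Sdc1, the heparan sulfate proteoglycan syndecan-1 (-1.36 ± 0.24), followed. For these 5 genes the mean of the Ezh2 -/- libraries without V617F already stood above that of the Ezh2 +/- ones. Podxl measured 118 ± 29.1 CPM there against 14.5 ± 3.54 CPM, and with V617F it measured 318 ± 46.9 CPM in Ezh2 -/- (n = 6) against 233 ± 48.2 CPM in Ezh2 +/- (n = 6). For Cpd the 4 means were 125 ± 5.81 CPM and 53.3 ± 7.81 CPM without V617F and 213 ± 41.1 CPM and 252 ± 67.2 CPM with it. Sdc1 was not called in Ezh2 +/- (0.48 ± 0.19, adjusted p = 0.112) and fell with V617F in Ezh2 -/- (-0.89 ± 0.17, adjusted p = 0.000526). The differences of Podxl and Cpd were called in all 19 other fits that could test them, those of Fam124a and Sdc1 in 18 and that of Hs6st2 in 16.

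**Figure D5:**
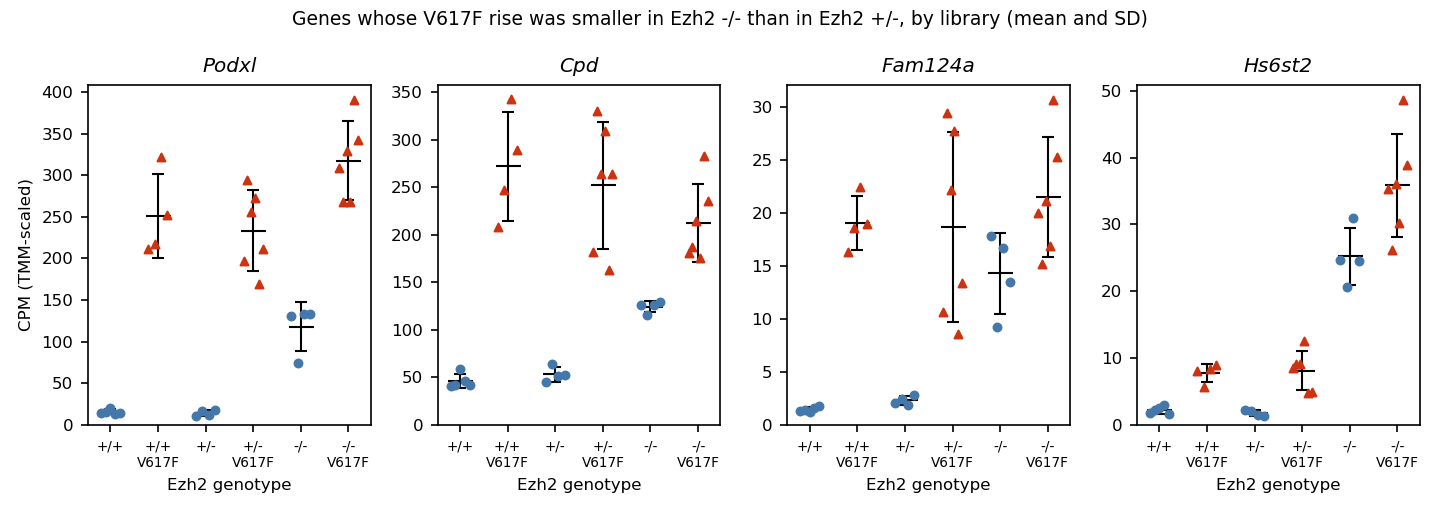
CPM of Podxl, Cpd, Fam124a and Hs6st2 in all 29 libraries, 1 point per library, in the 6 groups of Ezh2 genotype without V617F (blue circles) and with it (red triangles), with mean and SD. In Ezh2 +/+ and Ezh2 +/- the libraries without V617F lie near the bottom of each panel, and those of Ezh2 -/- lie above them, at 118 CPM on average for Podxl.

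Of the 5 genes named for a higher value in Ezh2 -/-, 4 are immune genes. Cd74 fell in Ezh2 +/- as above, and its log2 was 0.28 ± 0.49 in Ezh2 -/-, a difference of 2.80 ± 0.69 (adjusted p = 0.0465). H2-Aa (2.88 ± 0.71), H2-Eb1 (2.87 ± 0.70) and Cd7 (2.36 ± 0.55) differed in the same sense, as did Xlr4b, a gene of an X-linked multigene family whose reads may be shared (1.32 ± 0.27). For Bcl11b the difference was 3.80 ± 0.60 (adjusted p = 0.00319). For these 5 genes and Bcl11b the mean of the Ezh2 -/- libraries without V617F already stood below that of the Ezh2 +/- ones. Cd74 measured 25.7 ± 7.86 CPM there against 86.04 ± 33.3 CPM, and 29.4 ± 17.9 CPM in Ezh2 -/- with V617F. Without V617F, Cd7 had 9.09 ± 3.28 CPM in Ezh2 -/- against 19.003 ± 8.11 CPM, and Bcl11b 0.354 ± 0.068 CPM against 1.28 ± 0.42 CPM. Whether the lower starting level accounts for these differences was not tested. Of the lists, 5 of 10 class II and 5 of 30 T and NK genes were called different. The median log2 of the T and NK list was -3.02 in Ezh2 +/-, -2.46 in Ezh2 +/+ and -0.66 in Ezh2 -/-, and that of the megakaryocyte list 1.21, 1.21 and 2.62, where no single member's difference from Ezh2 +/- was called by edgeR. The count of 149 depended on single libraries: it was 38 without Ezh2 +/- replicate 2, 1402 without V617F Ezh2 +/- replicate 1, 7 without both female controls and 6238 without V617F replicates 1, 5 and 6. Cd74 was called in 9 of the 19 other fits, Cd7 in 11, and H2-Aa and H2-Eb1 in 8 each.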

How the data were processed

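RNA was taken with Trizol-LS from 230000 sorted cells per sample. The deposited values are raw counts per gene, 1 column per library. Reads were aligned with STAR to mm9, per the submitters' processing notes. For the counter, its annotation, its use of strand and the STAR version: not given in the sources used here. Symbols came from a RefSeq table (GRCm38.p6) by Entrez ID for 18772 of 18834 genes. Libraries of a group differed by a chi-square per degree of freedom of at least 4.92, so none was counted as a copy. The value of 4.92 was that of V617F Ezh2 +/- replicates 3 and 4, which were closest, and every other pair had at least 19.7.

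edgeR 4.0.16 (R 4.3.3) was fitted once to all 29 libraries with group and sex as terms (TMM, filterByExpr with a minimum count of 10 and minimum total of 15, robust quasi-likelihood, 22 residual degrees of freedom, biological coefficient of variation 18.1%). Values are given as log2 fold change ± SE, CPM means as ± SD, and a gene was called at an adjusted p under 0.05 over all 13928 genes. CPM used TMM factors of 0.9502 to 1.052, and principal components used log2 CPM with a prior count of 2. The pipeline was tested on simulated data. The alternatives were DESeq2 1.42.0, RLE size factors, no filter, no sex term, a replicate block, only the groups compared, female libraries, each replicate left out, and, chosen after seeing the data, V617F replicates 1, 5 and 6 left out and V617F Ezh2 +/+ replicate 1 left out.

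The members and the 31 gene lists were chosen with earlier results of these data known. Genes were named by rule: per direction, the 12 largest changes among called genes with mean log2 CPM of at least 2 and no overlap between groups; per list and direction, up to 4 with the lowest adjusted p; Podxl, Cpd, Gab2, Ezh2 and Jak2; per test of a difference between Ezh2 genotypes, up to 5 per direction; and, for a list with no call, its 3 highest genes. Members given with values that were not called, and genes said to be so chosen, are outside the rule. Some genes that the rule names are not reported here.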

Additional observations from a re-analysis of the deposited data

Results flagged for a closer look

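In groups of 4 and 6 libraries, single values stood far from the rest of their group by Dixon's criterion, which chance meets in about 1 in 20 groups. Among the 4 Ezh2 +/- libraries these were, in CPM, replicate 1 for Chil3 (1.69), replicate 2 for Slc14a1 (224), replicate 4 for Hoxb2 (1.29), Blk (0.158), H2-Eb1 (9.7) and Cd74 (36.2), and replicate 5 for Ddit3 (25.9), Mef2c (81.6), Ptger3 (10.5) and Txnrd1 (181). In the mean log2 CPM of gene lists they were replicate 1 for B cell genes (-1.36) and replicate 5 for DNA replication (7.41) and immediate early genes (5.62).

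Among the 6 V617F Ezh2 +/- libraries they were, in CPM, replicate 1 for Hoxb2 (4.6), Il4 (2.05) and Il7r (2.02), replicate 2 for Ccnd2 (240), B3gnt7 (17.9) and Spry4 (4.65), and replicate 6 for Hbb-bs (106), Alas1 (47.7), Ms4a1 (0.271), H2-Eb1 (13.8), Cd74 (35.5), Irf4 (0.764) and Itgax (2.56). In list means they were replicate 2 for PRC1 subunits (4.95) and replicate 1 for amino acid synthesis and ATF4 stress (4.66).

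The V617F effect differed between Ezh2 -/- and Ezh2 +/- by the edgeR test of the difference (log2, Ezh2 -/- minus Ezh2 +/-) for Podxl (-2.58), Fam124a (-2.40), Hs6st2 (-1.68), Cpd (-1.47) and Sdc1 (-1.36), with the higher effect in Ezh2 +/-, and for H2-Aa (2.88), H2-Eb1 (2.87), Cd74 (2.80), Cd7 (2.36) and Xlr4b (1.32), with the higher effect in Ezh2 -/-.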

How the results depend on the processing

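The 1374 genes called (467 higher, 907 lower) became 2170 without the sex term (905 higher), 313 with only the 2 groups fitted (43 higher, 270 lower), 67 without Ezh2 +/- replicates 2 and 5 (45 higher, 22 lower) and 720 with an absolute log2 of at least 1 (214 higher, 506 lower). Genes called higher numbered 249 among female libraries and 830 with DESeq2, which called 1789 in all. Leaving out 1 library gave 706 to 1893 genes, 198 to 940 higher and 479 to 1000 lower. Without Ezh2 +/- replicate 2 there were 802 (604 lower), without replicate 5 there were 706, with 227 higher and 479 lower, and without V617F replicate 2 there were 1893. RLE size factors gave 1401 (564 higher, 837 lower) and no filter 1285. The difference in effect between Ezh2 +/- and Ezh2 +/+ was called for 6 genes by DESeq2 and for 0 by edgeR in every alternative that could test it. The 149 genes that differed between Ezh2 -/- and Ezh2 +/- became 7 without Ezh2 +/- replicates 2 and 5, 6238 without V617F replicates 1, 5 and 6, 512 with DESeq2 and 38 to 1402 with 1 library left out. Among single genes, 1944 alternative values kept their call, 402 lost it, 1 gained it and 1 changed sign, Ezh2 at 0.0318 without V617F replicates 1, 5 and 6 (adjusted p = 0.828). The causes were not tested. In the fit of the 2 groups alone the tests of a difference between Ezh2 genotypes could not be made.

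With the replicate number as a block, 1195 genes were called (387 higher, 808 lower) and 60 differed between Ezh2 -/- and Ezh2 +/-. Samples of the same number correlated in their deviations at -0.33, -0.161, 0.415 and 0.481 (numbers 1, 2, 4 and 5). Not every sample correlated best with its own number. Ezh2 +/- replicate 5 correlated at 0.534, 0.481 and 0.586 with V617F replicates 1, 5 and 6, which also stood apart on the first principal component. Because the deviations follow that split, these correlations cannot decide whether the numbers pair the samples. Genes at or under 0.0578 to 0.0875 CPM cannot be told from 0 at this depth.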
